A study of Mus musculus with 6 samples.

Results

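The genes described here are 8 members of the MHC class I antigen presentation pathway, chosen by name from a table of 22564 protein-coding genes: the heavy chains H2-D1 and H2-K1, the light chain B2m, the peptide transporter genes Tap1 and Tap2, the chaperone gene Tapbp, the peptidase gene Erap1 and the regulator Nlrc5. All 8 were in the table, 4 of them (H2-K1, Tap1, Tap2 and Nlrc5) were listed at 0 in all 6 libraries, and 4 (H2-D1, B2m, Tapbp and Erap1) passed the minimum mean FPKM of 1 for testing. RNA sequencing was carried out on total RNA freed of ribosomal RNA of liver from male C57BL/6 mice aged 10 weeks. Per the labels, 3 libraries came from control mice and 3 from mice given 0.2 mg/kg of tunicamycin into the peritoneum every day for 14 days. Tunicamycin stops N-linked glycosylation and so causes stress in the endoplasmic reticulum (ER). The sources used here do not say whether controls received vehicle, nor that each library was a different mouse. The spread between libraries may thus be technical in part. With all libraries, limma p-values took that spread from genes of like level and not from each gene alone.

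MHC class I molecules show peptides from inside a cell to cytotoxic T cells. A glycosylated heavy chain pairs with beta-2-microglobulin in the ER, the TAP transporter carries peptides made by the proteasome into the ER lumen, tapasin holds the empty heavy chain at the transporter together with calreticulin and ERp57, and ER aminopeptidases trim the peptides to length. Nearly all nucleated cells carry class I molecules. In liver the level is known to be low on hepatocytes at rest and higher on Kupffer, endothelial and infiltrating immune cells, and interferon raises it. Folding, glycosylation and loading all take place in the compartment that tunicamycin disturbs, and the comparison asks whether the mRNAs of this pathway differed after sustained low-dose treatment.

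The libraries were shallow and unevenly filled. Reads recovered from the deposited count columns numbered 541022 to 661145 per library, and 2950 to 5346 genes per library held a read, fewest in control 1. The limit that a read number of 0 allows (3 reads, counting error only) lay between 0.000454% and 0.000555%. That limit takes reads as independent. Reads per gene clustered around a most frequent number of 39.9 to 139 per library, so the limit is likely too low. Of all genes in the table, 61.3% were listed at 0 in all 6 libraries. Of 12 hepatocyte markers 7 (58.3%) were at 0 throughout, near the share of all genes, and Ttr, Cps1 and Cyp2e1 were among them. The labelled tissue was thus only partly borne out by its markers. The summed FPKM of that list was 445 to 598 in controls and 246 to 395 after tunicamycin, but its 4 tested genes did not share a direction, with 2 positive and 2 negative (median log2 fold change 0.49) and 0 past the threshold. Trf, transferrin, gave 281, 109.9 and 309 FPKM in controls against 219, 103 and 133 in treated libraries. Alb, albumin, gave 231, 300.5 and 213 against 133, 96.3 and 127, without overlap. Apob, apolipoprotein B, gave 0.042, 1.84 and 0.23 against 5.34, 5.05 and 13.4, without overlap in the other direction. Groups did not overlap for 5.74% of all genes tested. Fgb, a fibrinogen chain, gave 0, 33.2 and 76.1 against 33.7, 41.3 and 43.2. Of other cell types that carry class I, markers were at 0 in all 6 libraries for 11 of 11 T and NK cell genes, 6 of 6 B and plasma cell genes, 8 of 8 neutrophil genes and 9 of 9 endothelial genes. Of 10 Kupffer cell and macrophage genes 8 were at 0 throughout and 1 held reads (Cd68, 47.9 FPKM in tunicamycin 1 alone), and of 8 dendritic cell genes 7 were at 0. Of 9 stellate cell and fibroblast genes 7 were at 0. Of 10 genes of cholangiocytes and other epithelium 2 were at 0, and the summed FPKM of that list was 454 to 620.4 in controls and 389 to 468 after tunicamycin. Krt18 gave 288, 123 and 289 FPKM in controls against 242, 209 and 126, and Krt8 gave 105, 124 and 105 against 83.6, 47.7 and 33.4, without overlap. Krt19 gave 6.46, 35.6 and 81.2 against 64.2, 78.5 and 174, and Krt7 gave 170, 151 and 33.1 against 55.6, 5.05 and 19.2. The mean of Krt18 over the 6 libraries was 213 FPKM, beside 192 for Trf and 183 for Alb. Krt18 and Krt8 are not particular to cholangiocytes, so their values do not tell cholangiocytes from hepatocytes. The part of these markers in the class I values was not tested. In bulk tissue, fewer cells of a type and less RNA per cell cannot be told apart.

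The heavy chains form the peptide groove, and in this strain H2-D1 and H2-K1 encode the classical molecules Db and Kb. H2-D1 (ENSMUSG00000073411; chromosome 17, 35262730 to 35267499, plus strand, mm10 with GENCODE M21) gave no signal in control 1 (0 FPKM), 46.02 FPKM in control 2 and 5.79e-45 FPKM in control 3, a value without a read. Tunicamycin libraries 1, 2 and 3 gave 118, 40.95 and 160 FPKM. H2-D1 held reads in 1 of 3 controls and 3 of 3 tunicamycin libraries, and the groups overlapped, since tunicamycin 2 lay below control 2. In whole reads, controls held 0, 164 and 0 and treated libraries 224, 143 and 516. The log2 fold change of H2-D1 was 4.69 on the log2(FPKM + 1) scale (SE 1.71, 95% interval 1.33 to 8.05), with an unadjusted limma p of 0.00625 and a limma adjusted p of 0.852 over 7696 genes, so it did not pass. Tested on whole reads, its log2 fold change was 2.27 by edgeR (unadjusted p = 0.0654, edgeR adjusted p = 0.642) and 2.42 by DESeq2 (unadjusted p = 0.377, DESeq2 adjusted p = 0.9997). The treated mean FPKM of H2-D1 was 6.93 times the control mean. Both read totals, 164 and 883, gave a ratio of 5.38, and without control 2 the controls held no read of the gene at all. With 1 library left out, the limma interval of H2-D1 included 0 without control 1 (-0.76 to 8.28), control 3, tunicamycin 1 or tunicamycin 3. It lay above 0 without control 2 (3.98 to 9.10) or tunicamycin 2 (0.04 to 10.48).

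H2-K1 (ENSMUSG00000061232; chromosome 17, 33996017 to 34000347, minus strand) was listed at 0 in all 6 libraries. No comparison between the groups could be made for it. Of 2262 distinct stretches of 100 bases in its transcripts, 0 occurred in the transcripts of another gene on the sense strand. Among stretches of 50 bases 6.87% were shared, most often with H2-D1. For H2-D1 the shares were 4.09% at 100 bases and 13.9% at 50 bases, and the partner that shared most was H2-Q1, a class Ib heavy chain gene. Reads that fall in these stretches can be split between the copies, so the values of H2-D1 and H2-Q1 are uncertain to that extent. The authors' table gives H2-D1, Ddx39b, H2-Q1, H2-Q2, H2-Q4 and H2-Q6 the same locus of 189889 bases, and no source used here states how reads were divided inside it. The same holds for the loci that B2m shares with Patl2 and Trim69, and Erap1 with Cast, Gm10116 and Zfp825. Tapbp likewise shares one with Zbtb22, Tap1 with Psmb9, and Tap2 with Psmb8 and Gm15821.

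The other class I and class I-like heavy chain genes numbered 18, of which 12 (66.7%) were at 0 throughout. Of the 6 tested, 1 was positive and 5 were negative (median log2 fold change -1.33), with 0 past the threshold. The class I-like genes Fcgrt and Hfe were among the negative ones. For H2-Q1, control 1, where H2-D1 had no read, gave 40.3 FPKM (127 reads), control 3 gave 0.58 FPKM (2 reads), and the other 4 libraries gave 0. Fcgrt, the neonatal Fc receptor gene, gave 59.3, 30.5 and 0 FPKM in controls against 0, 0 and 30.4 in treated libraries. H2-T23, which encodes the class Ib molecule Qa-1, held reads in 5 libraries, at 0, 25.9 and 13.9 FPKM in controls, against 3.93, 0.43 and 8.96 in treated libraries. H2-Q4 held reads in 3 libraries, with 10.03 FPKM in control 2, 0.34 in tunicamycin 2 and 20.6 in tunicamycin 3. Over all 16 H2 class I heavy chain genes of the lists, a sum chosen after the values were seen, controls held 127, 362 and 41 reads and treated libraries 234, 145 and 601. In this sum every library held heavy chain reads and the groups overlapped.

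The upstream sequences of both classical heavy chain genes are shown with those of B2m and Tap1, because H2-D1 and H2-K1 carry the same known class I elements while one was measured and the other was listed at 0, as Tap1 was. Each sequence is the 250 bases before a RefSeq transcription start (GRCm38.p6), written 5′ to 3′ on the gene's strand, with motif matches in capitals. RefSeq gives H2-K1 a pair of starts, and the one at the end of the authors' locus was taken. The windows searched for H2-D1, Tapbp and Erap1 lie wholly inside the gene spans of GENCODE M21, which begin further upstream. Distances and absent motifs hold for the RefSeq starts alone.
H2-D1, chr17:35262844-35263093, plus strand: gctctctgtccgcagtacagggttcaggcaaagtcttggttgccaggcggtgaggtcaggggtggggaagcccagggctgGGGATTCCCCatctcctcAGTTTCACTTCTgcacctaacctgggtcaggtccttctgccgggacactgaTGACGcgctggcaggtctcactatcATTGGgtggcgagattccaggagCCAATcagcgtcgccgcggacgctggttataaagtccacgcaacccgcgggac
H2-K1, chr17:34000334-34000583, minus strand: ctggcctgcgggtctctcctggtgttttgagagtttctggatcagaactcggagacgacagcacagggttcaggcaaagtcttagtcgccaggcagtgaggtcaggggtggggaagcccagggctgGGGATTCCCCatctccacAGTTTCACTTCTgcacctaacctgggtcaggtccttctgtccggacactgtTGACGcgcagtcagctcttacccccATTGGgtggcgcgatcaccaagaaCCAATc
B2m, chr2:122147437-122147686, plus strand: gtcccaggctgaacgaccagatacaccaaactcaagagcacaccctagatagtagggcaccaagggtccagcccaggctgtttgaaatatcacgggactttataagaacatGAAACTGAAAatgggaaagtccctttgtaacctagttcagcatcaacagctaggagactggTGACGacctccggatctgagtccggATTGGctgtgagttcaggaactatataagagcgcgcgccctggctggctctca
Tap1, chr17:34187306-34187555, plus strand: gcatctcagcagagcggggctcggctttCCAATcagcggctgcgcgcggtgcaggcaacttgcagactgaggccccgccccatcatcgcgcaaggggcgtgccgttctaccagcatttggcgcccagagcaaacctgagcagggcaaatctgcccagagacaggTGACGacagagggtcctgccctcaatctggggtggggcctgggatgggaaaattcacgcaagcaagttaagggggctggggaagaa

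The motifs were searched on both strands. They were the kB site of class I enhancer A (10 bases, where NF-kB binds), the class I interferon response sequence (12 bases), the general ISRE core (10 bases), the CRE core (TGACG), the CCAAT box (CCAAT, where NF-Y binds) and the ER stress element (19 bases, where ATF6 binds with NF-Y). The last contains a CCAAT box by construction, and the class I interferon response sequence was added to the search after these promoters had been read, so its match in them is no finding. H2-D1 held the kB site at -170 to -161, the interferon response sequence at -152 to -141, a CRE core at -101 to -97 and a pair of CCAAT boxes. H2-K1 held the same elements in the same order, the kB site at -124 to -115, the interferon response sequence at -106 to -95 and the CRE core at -55 to -51. The second CCAAT box lay at -6 to -2 in H2-K1 and at -53 to -49 in H2-D1. All these distances depend on the RefSeq start taken for each gene. From the kB site to the second CCAAT box H2-D1 and H2-K1 spanned 122 and 123 bases with 16 differences. Of 27025 mouse promoters, 1 per gene and of the same 250 bases, 0.0740% held the kB site and 0.0296% the interferon response sequence. B2m held an ISRE core at -139 to -130 (3.04% of promoters), a CRE core (17.9%) and a CCAAT box (34.5%), and Tap1 a CRE core and a CCAAT box. Tapbp held CCAAT boxes alone, Erap1 none of these motifs, and no promoter of the 6 members searched held an ER stress element (0.122%). Tap2 and Nlrc5 were not searched. A match or its absence in these windows describes letters and says nothing about binding.

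**Figure D1:**
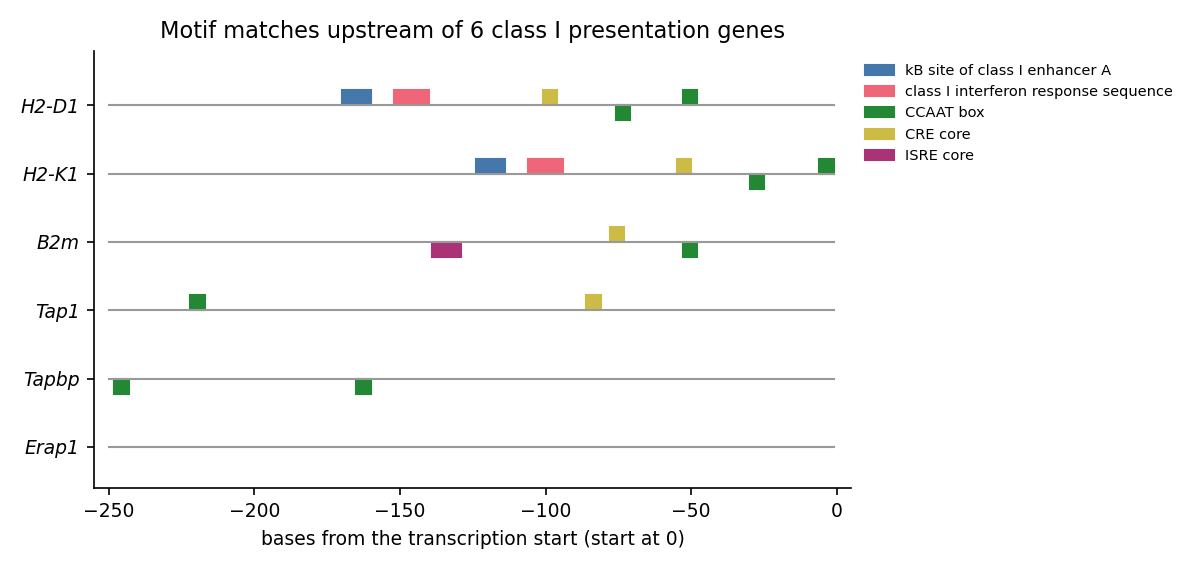
Motif matches in the 250 bases upstream of the transcription start of 6 class I presentation genes, with distance from the start in bases on the horizontal axis, boxes above the line for matches on the gene's strand and below it for the opposite strand. H2-D1 and H2-K1 show the same 5 boxes in the same order, starting with the kB site at -170 and -124 from the start taken for each gene.

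B2m (ENSMUSG00000060802; chromosome 2, 122147686 to 122153083, plus strand) encodes beta-2-microglobulin, the light chain without which most class I heavy chains do not reach the cell surface. It lay at 0, 155 and 122 FPKM in controls 1, 2 and 3, against 254, 5.65 and 60.1 FPKM in treated libraries. Control 1 was the lowest and tunicamycin 1 the highest of the 6, and tunicamycin 2 and 3 lay below controls 2 and 3, so the groups overlapped. The mean of B2m was 92.2 ± 81.5 FPKM for controls (SD, n = 3) and 107 ± 131 FPKM for treated libraries (SD, n = 3), a ratio of means of 1.16. On the log2(FPKM + 1) scale, where each library is transformed before averaging, the difference was 0.81 (SE 1.44, 95% interval -2.01 to 3.64, limma adjusted p = 0.906). The difference was smaller than the spread in either group. Its sign rested on single libraries: the log2 fold change was -1.56 without control 1 and -0.41 without tunicamycin 1. Controls held 0, 195 and 160 reads of B2m and treated libraries 345, 7 and 78, and 0 of its 761 stretches of 100 bases were shared with another gene.

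B2m and H2-D1 both held reads in control 2 and in all 3 treated libraries, and neither held any in control 1. Control 3 alone held one without the other, with 160 reads of B2m and 0 of H2-D1. Where both were read, B2m and H2-D1 stood at 195 and 164 reads in control 2, 345 and 224 in tunicamycin 1, 7 and 143 in tunicamycin 2, and 78 and 516 in tunicamycin 3.

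**Figure D2:**
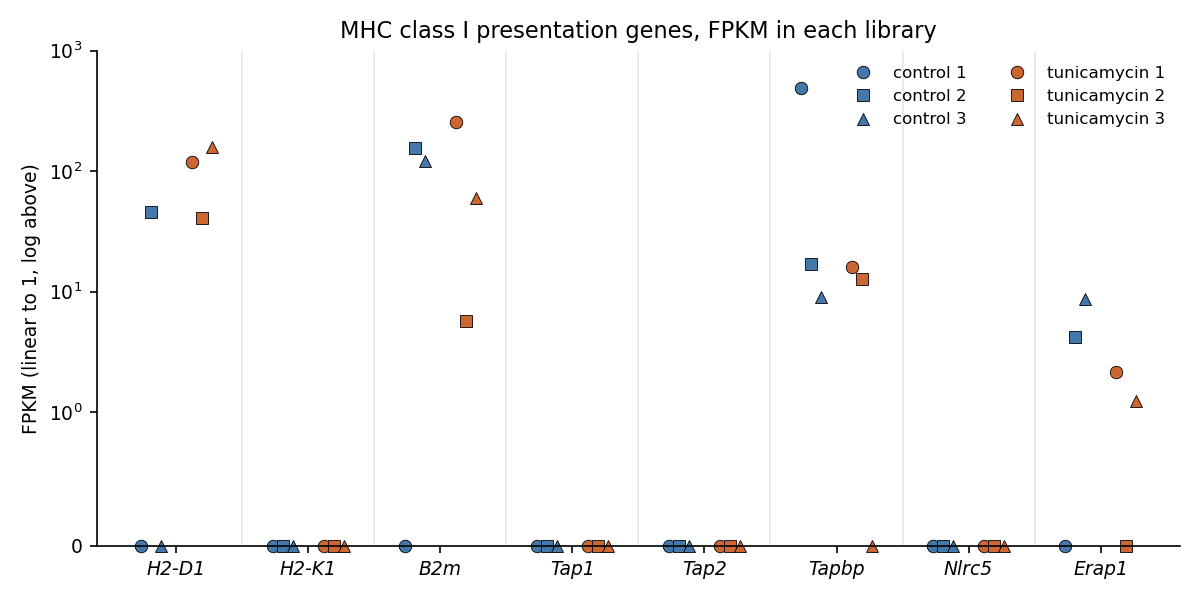
FPKM of the 8 class I presentation genes in each library (vertical axis linear from 0 to 1 and logarithmic above), controls in blue, tunicamycin in orange, 1 point per library. H2-K1, Tap1, Tap2 and Nlrc5 lie at 0 in all 6, H2-D1 in control 3 is drawn at 0 for its value of 5.79e-45, and Tapbp in control 1 stands at 489 FPKM against 17.1 or less elsewhere.

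Tap1 and Tap2 encode the subunits of the peptide transporter and lie side by side on chromosome 17 (Tap1 34187553 to 34197225, Tap2 34203527 to 34216321, both on the plus strand) with the immunoproteasome genes Psmb9 and Psmb8. All 4 genes of this cluster were listed at 0 FPKM in all 6 libraries, as 61.3% of all genes were, with 0 reads each. Tap1 and Tap2 shared 0 stretches of 100 bases with other genes. The exons of Tap1 overlap those of Psmb9 over 212 bases on the opposite strand. Other genes of the MHC region were measured: of 22 in a list of neighbours of the class I and TAP genes, 3 were at 0 throughout and 7 held reads in every library, among them Rps18, a ribosomal protein gene, at 506 to 852 FPKM in controls and 174 to 573 after tunicamycin.

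Tapbp (ENSMUSG00000024308; chromosome 17, 33915899 to 33929292, plus strand) encodes tapasin. It lay at 489, 17.1 and 9.04 FPKM in controls 1, 2 and 3, against 16.01, 12.8 and 0 FPKM in treated libraries. Leaving control 1 aside, the libraries with reads lay between 9.04 and 17.1 FPKM in both groups. The log2 fold change was -2.86 (SE 1.75, 95% interval -6.29 to 0.58, limma adjusted p = 0.852). The treated mean of Tapbp was 0.0559 times the control mean, and 0.734 times without control 1. In reads, at 333, 86 and 48 in controls and 85, 63 and 0 after tunicamycin, the ratio of totals was 0.317, and without control 1 the ratio of mean reads was 0.736.

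The 489 FPKM of Tapbp in control 1 came from 333 reads, whereas 86 reads gave 17.1 FPKM in control 2. One FPKM of Tapbp stood for 0.746 scaled counts in control 1 and for 5.28 to 5.34 in the other 4 libraries with reads. FPKM divides by a transcript length, and annotated transcripts of Tapbp run from 301 to 2898 nt. The length used in each library was not analysed here, so the FPKM of Tapbp in control 1 is uncertain against the others. For H2-D1 the same quotient was 1.91 in tunicamycin 1 and 3.34 to 3.76 in the other 3 libraries with reads, and for Erap1 it was 7.47 to 7.53. Exons of Tapbp overlap those of Zbtb22 on the same strand over 149 bases, but Zbtb22 was listed at 0 in all 6 libraries.

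Erap1 (ENSMUSG00000021583; chromosome 13, 74639568 to 74693201, plus strand) encodes the ER aminopeptidase that trims peptides for class I, named ERAAP in mouse. It was the lowest of the measured members, at 0, 4.22 and 8.66 FPKM in controls, against 2.14, 0 and 1.24 in treated libraries. The libraries with reads were higher in controls, but control 1 was at 0, and the groups overlapped. The log2 fold change was -0.95 (SE 1.89, 95% interval -4.65 to 2.76, limma adjusted p = 0.923), from 95 reads in controls and 25 after tunicamycin. The log2 fold change was -1.89 without control 1 and -0.25 without control 3, the extremes over the libraries left out. Its exons overlap those of Cast on the opposite strand over 834 bases.

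Nlrc5 (ENSMUSG00000074151; chromosome 8, 94434356 to 94527272, plus strand), the transactivator that acts at class I promoters, was listed at 0 in all 6 libraries. Its transcripts, the longest of the 8 genes with 8019 distinct stretches of 100 bases, shared 0 of them with another gene.

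**Figure D3:**
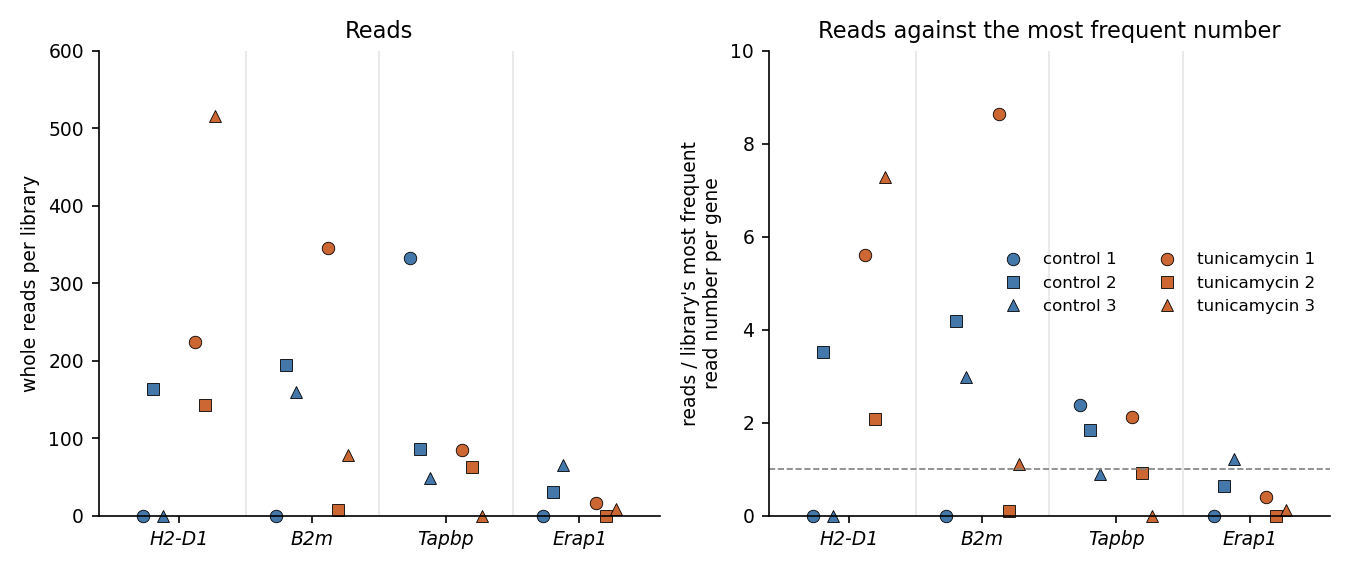
Whole reads of the 4 measured members in each library (left) and the same reads divided by the most frequent read number per gene of that library (right; dashed line at 1), controls in blue, tunicamycin in orange. The highest quotient is 8.65 for B2m in tunicamycin 1, and those of Erap1 are at most 1.21.

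Over the 6 libraries the median FPKM was 91.1 for B2m, 43.5 for H2-D1, 14.4 for Tapbp and 1.69 for Erap1. Neighbours in this order did not separate: each of the 4 was at 0 in at least 1 library, and the highest values were 254 for B2m, 160 for H2-D1, 489 for Tapbp and 8.66 for Erap1. No member held reads in all 6 libraries, so no genes of like pattern were named. Within a library, reads per gene clustered around a most frequent number, which was 39.9 to 139 reads, highest in control 1. Members with reads ranged from 0.10 to 8.65 times that number, and Tapbp and Erap1 stayed at or below 2.39 times. Summed over the 8 members, reads were 333, 475 and 273 in controls and 670, 213 and 603 after tunicamycin, or 0.0413% to 0.0823% and 0.0385% to 0.110% of a library's reads. The sums of the groups overlapped.

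Across the table, 5 of 7696 genes passed the limma threshold (0.065%), and 0 of the 4 members tested did. At an unadjusted limma p under 0.05 there was 1 member (H2-D1), beside 238 of all genes tested (3.09%). By edgeR the share past the adjusted threshold was 0.039% and by DESeq2 0.442% of the 7696, again with 0 members. DESeq2 gave no adjusted p for 3411 of these genes, Erap1 among them. The log2 fold change was positive for 2 of the 4 members and negative for 2 (52.1% of all genes tested were positive), with a median of -0.07 against 0.10 for all genes tested. With 1 library left out, the members' median ran from -1.34 to 0.87. For 0 of the 4 did the groups fail to overlap in FPKM, which held for 442 genes tested (5.74%). With all libraries, limma took the variance of each gene wholly from the trend over genes of like level. For B2m that SD was 1.76 on the log2 scale against 3.46 of its own, so its SE above is too small for its spread. For H2-D1 the trend was also the smaller (2.10 against 2.38), and for Erap1 it was the larger (2.32 against 1.34). The limma intervals and p-values with all libraries take the SD from the trend as known without error.

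**Figure D4:**
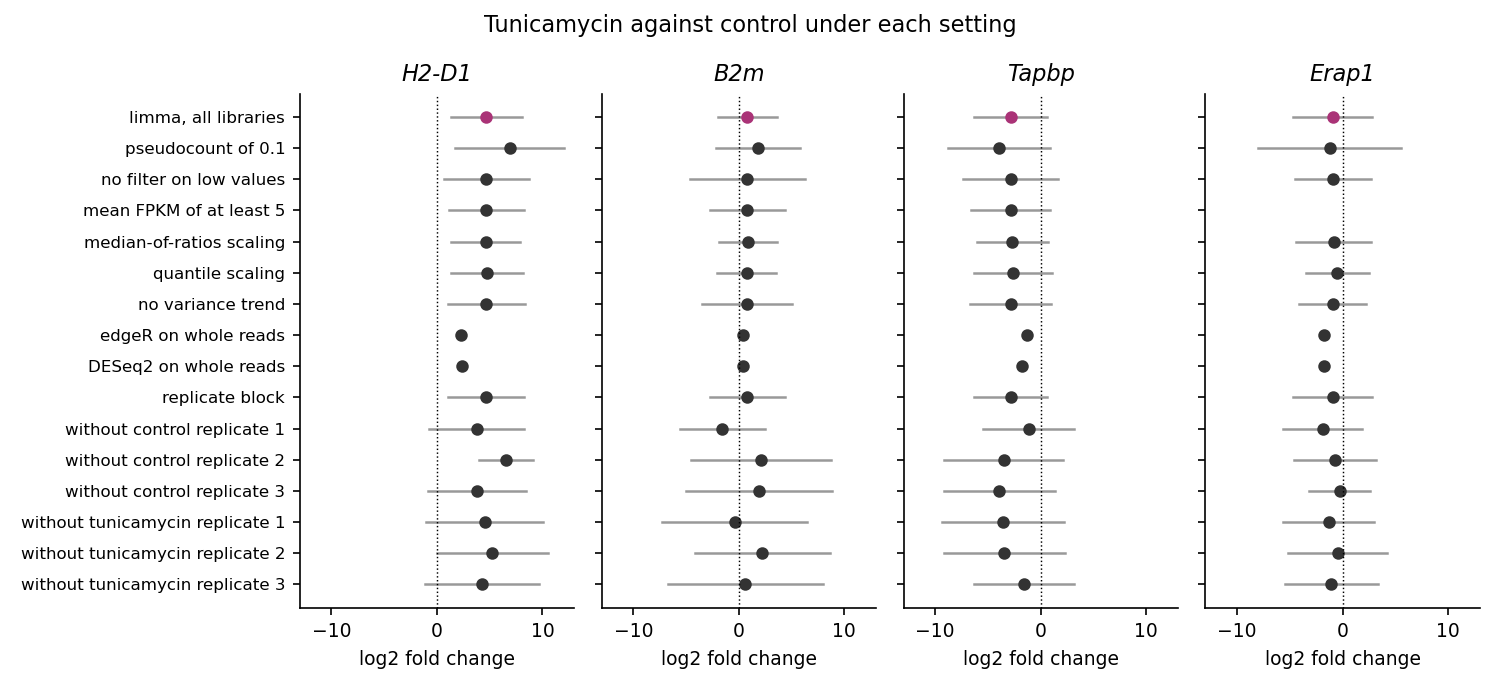
Log2 fold change of tunicamycin against control for the 4 measured members under each setting, with 95% intervals where limma gave one (grey bars). H2-D1 stays between 2.27 and 6.89, Tapbp and Erap1 stay below 0, and B2m changes sign when control 1 or tunicamycin 1 is left out.

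Among 13 partner genes of peptide loading and export, 12 were tested, 7 positive and 5 negative in log2 fold change (median 0.27, and -0.25 to 0.79 with 1 library left out), and 0 passed. Reads were found in every library for 6 of the 13. Calr, calreticulin, lay at 737, 226 and 95.6 FPKM in controls, against 64.6, 283 and 121 in treated libraries, and Canx, calnexin, at 137, 39.3 and 119.5 and then at 33.6, 57.4 and 243. P4hb, a protein disulfide isomerase, lay at 50.9, 189 and 169 FPKM and then at 371, 123 and 539. Hspa5, the ER chaperone BiP, lay at 204, 110 and 81.3 FPKM and then at 202, 175 and 172. In all of these genes the groups overlapped.

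Peptide supply was represented by 14 genes, of which 10 were tested, 6 positive and 4 negative (median 0.56, and -0.70 to 0.60 with 1 library left out), with 0 past the threshold. Of the immunoproteasome subunits, Psmb8 and Psmb9 were at 0 throughout, as 61.3% of all genes were, and Psmb10 held reads in tunicamycin 1 alone (38 reads, 17.6 FPKM). Npepps, the puromycin-sensitive aminopeptidase, lay at 244, 0 and 61.05 FPKM in controls, against 63.2, 3.21 and 128 in treated libraries. Nrd1, the nardilysin gene, gave 241, 15.2 and 7.65 FPKM in controls against 6.82, 0 and 138. Psme1, a subunit of the PA28 proteasome activator, lay at 265, 0 and 0 FPKM and then at 29.3, 105 and 0. Pomp, the proteasome maturation protein, lay at 0, 138 and 0 FPKM and then at 55.7, 16.8 and 149 (3.36 on the log2 scale with an SE of 1.75, limma adjusted p = 0.852).

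Of 18 transcription factors that act at class I promoters or control them, 12 were tested, 6 positive and 6 negative (median -0.12, and -0.99 to 0.62 with 1 library left out), and 0 passed. Atf1, which binds CRE sites, gave 0, 54.3 and 329 FPKM in controls against 0, 58.4 and 362, and Ezh2, a histone methyltransferase gene, gave 275, 14.2 and 0 against 54.4, 25.9 and 0.45. Rela, a subunit of NF-kB, lay at 19.1, 29.1 and 20.8 FPKM in controls, against 12.5, 0 and 11.7 in treated libraries. It was the 1 gene of this list whose groups did not overlap, beside 5.74% of all genes tested (-2.09 on the log2 scale with an SE of 1.88, limma adjusted p = 0.852). Irf8, an interferon regulatory factor of myeloid cells, had no read in any control, and treated libraries gave 0, 16.3 and 90.9 FPKM. Interferon receptors and JAK kinases had 8 of 11 genes tested, 6 positive and 2 negative (median 0.99), and 0 passed. The 3 others, Ifng, Ifnb1 and Socs1, were at 0 throughout. Ifngr2 had no read in any control and gave 6.66, 0 and 98.2 FPKM in treated libraries, Ifngr1 at 0, 0.56 and 14.3 FPKM and then at 10.3, 35.3 and 0, Ifnar2 at 0, 22.9 and 0 FPKM and then at 17.6, 0 and 0, and Jak1 at 4.93, 57.4 and 9.61 FPKM and then at 4.23, 80.2 and 9.72.

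Interferon-induced genes, which rise with class I genes when interferon acts, were at 0 in all 6 libraries for 20 of 31 (64.5%, against 61.3% of all genes). Of the 10 tested, 4 were positive and 6 negative (median log2 fold change -1.01), and 0 passed. Without control 1 the median was 0. Ddx58, which encodes the RNA sensor RIG-I, lay at 51.7, 25.2 and 18.2 FPKM in controls, against 7.78, 0 and 0 in treated libraries (-3.85 on the log2 scale with an SE of 1.98, limma adjusted p = 0.852). It was the 1 gene of the list without overlap, beside 5.74% of all genes tested. Xaf1 held reads in control 1 alone (179 FPKM). Samhd1 gave 15.9, 6.48 and 75.3 FPKM in controls against 9.88, 0 and 0, and Irgm1 gave 8.2, 0 and 0 against 75.4, 16.4 and 0. MHC class II presentation genes, a mark of professional antigen-presenting cells, were at 0 in all 6 libraries for 10 of 10, Cd74 and H2-Aa included.

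Of 18 neighbours in the MHC region that were tested, 8 were positive and 10 negative (median log2 fold change -0.11, and -0.57 to 0.61 with 1 library left out), and 0 passed by limma or edgeR. Groups did not overlap for Ddx39b, Ppp1r18 and H2-Ke2, which held for 5.74% of all genes tested. Ddx39b, an RNA helicase gene that shares the authors' locus with H2-D1, lay at 42.6, 76.9 and 31.9 FPKM in controls, against 85.7, 160 and 138 in treated libraries (1.37 on the log2 scale with an SE of 1.10, limma adjusted p = 0.852). DESeq2 called 1 gene of this list, the prefoldin subunit gene H2-Ke2 (DESeq2 adjusted p = 0.0270, limma adjusted p = 0.190), at 178, 48.03 and 239 FPKM in controls against 0, 0 and 0. Tubb5, a tubulin gene, gave 215, 224 and 175 FPKM in controls against 204, 98.8 and 289, and Brd2, a bromodomain gene, gave 100.1, 29.8 and 202 against 33.5, 54.97 and 59.7.

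**Figure D5:**
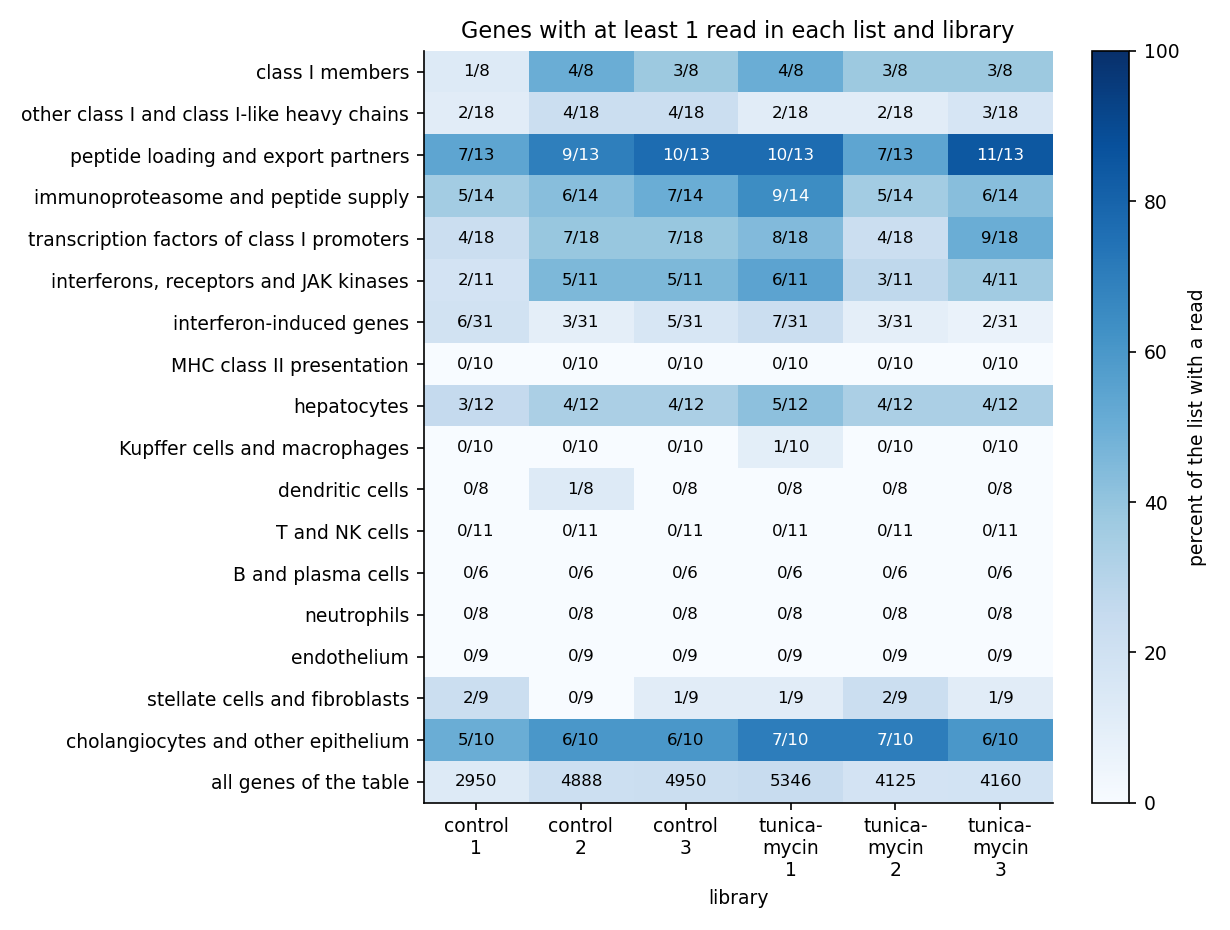
Number of genes with at least 1 read in each list (rows) and library (columns), shaded by the percent of the list, with all genes of the table in the last row. Class I members held reads for 1 of 8 genes in control 1 and 3 or 4 of 8 elsewhere, and class II, T and NK cell, B and plasma cell, neutrophil and endothelial lists held 0 in every library.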

How the data were processed

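Gene expression was measured in 3 control and 3 tunicamycin libraries. Per the labels, ribosomal RNA was removed from total RNA and libraries were made with a stranded kit. Tools listed in the submitters' processing notes are HISAT2 2.0.4, Cuffdiff, CASAVA 1.8 and cutadapt 1.9.3, with the build mm10. Whether counting used strand was not stated. The authors deposited FPKM and an estimated count per gene and library, and the scaling of these counts is not given. In each library 97.4% to 98.2% of count values above 0.5 were whole multiples (within 0.01) of 1 step of 0.9953 to 1.0953, and rounded quotients by that step served as whole reads in the alternatives.

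The test was limma 3.58.1 (R 4.3.3, variance trend, group as the only term, 2-sided) on log2(FPKM + 1) over genes whose mean FPKM reached 1, with Benjamini-Hochberg adjustment over all of them and a threshold of 0.05. The 1 added to FPKM shrinks fold changes of low genes. Where libraries are at 0, values on this scale are not lower limits of the change. For H2-D1 the log2 fold change was 4.69 with 1 added and 6.89 with 0.1 added, against 2.27 by edgeR and 2.42 by DESeq2. edgeR 4.0.16 (quasi-likelihood, TMM) and DESeq2 1.42.0 (poscounts) were run on whole reads. The limma and edgeR steps were tested on simulated data. The most frequent read number is the peak of the density of log10 reads over genes with at least 10 reads. Gene positions are from GENCODE M21 and promoters from RefSeq, both on the files' build. The promoter table matched 6 of the 8 members. One further motif that was searched is not reported here. Members, lists and tests were chosen with earlier results of these data known. Named beside the members are, in each list, genes past the threshold and up to 4 of the highest mean FPKM, while Ttr, Cps1, Cyp2e1, Zbtb22, Ifng, Ifnb1, Socs1, Psmb8, Psmb9, Psmb10, Cd68, H2-Ke2 and Ppp1r18 were named after their values were seen.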

Additional observations from a re-analysis of the deposited data

How the results depend on the processing

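Over 58 alternative values with an adjusted p for the 4 measured members, 56 kept the direction and stayed on the same side of the threshold, and 2 changed sign, both of B2m (-1.56 without control 1 and -0.41 without tunicamycin 1). No member passed with all libraries, and several settings called 0 genes over the whole table, so the side of the threshold was nearly fixed in advance. The settings refit the same libraries, so these counts are no measure of replication. With 1 library left out, the log2 fold change of B2m ran from -1.56 to 2.22, that of H2-D1 from 3.76 to 6.54, that of Tapbp from -3.93 to -1.13 and that of Erap1 from -1.89 to -0.25, and the number of members with a positive value from 1 to 2. Adjusted p-values of H2-D1 by limma, edgeR and DESeq2 under the alternatives ran from 0.642 to 0.9997. Erap1 gave no value at a mean FPKM of at least 5 and no adjusted p under DESeq2, where its log2 fold change was -1.77. The number of genes called over the whole table was 5, and it was 0 without a filter, without the variance trend, with a replicate block and with any library left out, 2 at a mean FPKM of at least 5, 3 by edgeR and 34 by DESeq2. The cause was not tested. Over the 7696 genes tested, deviations of same-numbered libraries correlated at -0.0093, -0.0140 and 0.0023. Of all genes in the table, 75.7% to 86.5% were at 0 in a library. That left 3046 to 5482 genes above 0, fewer than were tested, so many tested genes were at 0 in each library. Correlations near 0 could thus neither show nor exclude a pairing by replicate number. Under the replicate block no member passed (H2-D1 log2 fold change 4.69, limma adjusted p = 0.886). For the 4 members at 0, counting error alone allows up to 3 reads per library. Reads per gene clustered around 39.9 to 139 in a library, so the limit is likely higher, and it was not estimated.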
